A study of Mus musculus with 6 samples.

Results

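The 10 genes described here encode parts of the contractile apparatus that smooth muscle cells and myofibroblasts share: the actins Acta2 and Actg2, the myosin subunits Myl9 and Myh11, the tropomyosins Tpm1 and Tpm2, and the actin-binding proteins Tagln, Cnn1, Cnn2 and Lmod1. They were chosen by name, for what they encode and not by a cut on their values, from the 17606 genes of the expression table. All 10 were found there and all 10 had enough counts to be among the 13888 genes tested. Bulk RNA-seq had been performed on keratocytes, the collagen-producing stromal cells of the cornea, sorted by flow cytometry from mice aged 10 weeks at treatment, with 3 libraries per group. Both groups received 3 doses of tamoxifen, and the cells were taken 1 month later. The Ptch1-ablated group carried Prrx1-CreERT, a tamoxifen-dependent Cre knocked into Prrx1, together with floxed Ptch1. Ptch1 is the Hedgehog receptor that restrains the signal transducer Smo, and the comparison asked what sustained Hedgehog signaling does to keratocytes. The control mice received tamoxifen as well and are described only as controls of matched age, so whether they carried the Cre or a floxed allele is not given in the sources used here. The mice were on a C57BL/6 background and the study used both sexes. Prrx1-CreERT also recombines in corneal endothelial cells and, per the study, in other mesenchymal lineages of the eye, which limits the model as one of keratocytes alone.

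In smooth muscle and in myofibroblasts, filaments of smooth muscle actin slide along myosin II to produce force. Contraction is switched on when myosin light chain kinase phosphorylates the regulatory light chain, and tropomyosins and calponins on the actin filament tune it. Many of these genes are driven by serum response factor (SRF), which binds the CArG box and works with myocardin or with the myocardin-related factors that sense actin polymerization. Quiescent keratocytes contain little smooth muscle actin, while keratocytes that become myofibroblasts after wounding build stress fibers from it, which is why Acta2 is a customary marker of corneal scarring.

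Promoter sequence shows which of these genes have a CArG box close to the start site. RefSeq promoters of assembly GRCm38.p6 were matched for 7 of the 10 genes (Acta2, Cnn1, Cnn2, Lmod1, Myl9, Tpm1 and Tpm2). Promoters of 4 genes are printed below, as the 250 bases before the start site in the direction of the gene, because they contrast genes that passed the expression test described further on (Acta2, Myl9 and Tpm1) with one that did not (Cnn2). Capitals mark CArG boxes (CC, a run of A or T, then GG) and CArG-like elements, in which exactly 1 base of the central run is C or G. Acta2 lies on the minus strand at chr19:34255374-34255623, Myl9 on the plus strand at chr2:156775214-156775463, Cnn2 on the plus strand at chr10:79988350-79988599 and Tpm1 on the minus strand at chr9:67049214-67049463.
Acta2: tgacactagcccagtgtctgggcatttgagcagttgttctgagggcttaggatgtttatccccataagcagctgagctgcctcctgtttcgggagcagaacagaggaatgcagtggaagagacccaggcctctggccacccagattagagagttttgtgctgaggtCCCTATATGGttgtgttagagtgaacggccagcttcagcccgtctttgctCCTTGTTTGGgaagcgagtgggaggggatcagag
Myl9: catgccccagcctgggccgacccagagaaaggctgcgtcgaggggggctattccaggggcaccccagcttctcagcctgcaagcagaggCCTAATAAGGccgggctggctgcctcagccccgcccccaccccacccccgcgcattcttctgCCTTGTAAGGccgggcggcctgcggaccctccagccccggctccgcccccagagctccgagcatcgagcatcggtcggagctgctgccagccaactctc
Cnn2: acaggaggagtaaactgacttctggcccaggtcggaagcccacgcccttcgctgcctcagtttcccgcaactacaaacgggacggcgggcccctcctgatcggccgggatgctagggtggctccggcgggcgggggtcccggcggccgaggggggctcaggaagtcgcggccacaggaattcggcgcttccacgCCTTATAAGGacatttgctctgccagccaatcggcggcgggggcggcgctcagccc
Tpm1: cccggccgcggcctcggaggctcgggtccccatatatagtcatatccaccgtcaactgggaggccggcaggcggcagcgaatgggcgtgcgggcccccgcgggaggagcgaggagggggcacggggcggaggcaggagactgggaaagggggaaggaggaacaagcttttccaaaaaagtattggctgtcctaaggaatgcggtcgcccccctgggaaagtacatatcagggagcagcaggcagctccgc

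Cnn2 had a CArG box beginning 56 bases upstream of the start site. Myl9 had a CArG box 161 bases upstream and a CArG-like element 99 bases upstream, and Acta2 had CArG-like elements 84 and 34 bases upstream. Tpm1, which passed the expression test, had neither kind of element, and nor did Cnn1, Lmod1 and Tpm2, which did not pass. A CArG box was present in 1.63% and a CArG-like element in 8.5% of all 32851 RefSeq promoters of the same length (250 bases before and 50 after the start, both strands). The element bound by TEAD factors, CATTCC on either strand, was found in Acta2, Tpm1 and Lmod1, at 146, 56 and 130 bases upstream, and in 14.7% of all promoters. GACCACCCA, the consensus bound by GLI factors, was in the promoter of none of the 7 genes and in 0.253% of all promoters. None of these elements overlapped another in these 7 promoters. These matches describe letters in a short window and show neither binding nor its absence.

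Library totals were 20258414 to 24788039 counts in the controls and 21729844 to 23530490 in the Ptch1-ablated libraries, so that a count of 0 allows up to 3 counts, or 0.121 to 0.158 counts per 1000000 (CPM), for counting error only. Ptch1 itself had 1.53 to 4.67 transcripts per 1000000 (TPM) in controls and 59.8 to 78.5 TPM in the Ptch1-ablated libraries. That value covers the whole gene and does not resolve the floxed exons, so it checks no deletion, and the groups are named as labelled. Of 8 keratocyte markers, Kera, Aldh3a1, Lum and all others but Ptgds had counts in all 6 libraries, and the list summed to 102928 to 118712 TPM in controls and 79925 to 95958 TPM in the Ptch1-ablated libraries. The methods speak of biological replicates without naming the animals. The p-values therefore set group differences against the spread between these libraries, which may or may not be that between animals. In bulk samples, fewer cells of a type and less RNA per cell cannot be told apart.

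Each of the contractile genes that passed the test was higher after Ptch1 ablation. Acta2, Tagln and Tpm1 rose 2-fold or more after Ptch1 ablation, Myl9 rose less than 2-fold, and the remaining 6 did not pass the test. With edgeR's quasi-likelihood test, 3 of the 10 were called higher (2-fold or more at an adjusted p no greater than 0.05) against 3.36% of all genes tested, and none was called lower against 2.13% (5.49% in either direction). Without the fold minimum 4 of the 10 passed as higher, beside 4.68% of all genes, and 0 passed as lower, beside 3.8%. At an unadjusted p under 0.05 edgeR gave 4 of the 10 as higher and 0 as lower, beside 10.8% and 9.72% of all genes. DESeq2 gave 6 and 0, beside 11.9% and 10.1%. The limma fit on log2(TPM + 1), in which the median of all genes is shifted up by 0.19, gave 8 and 0, beside 18.6% and 7.09%. For 7 of the 10 genes the 3 Ptch1-ablated libraries all lay above the 3 controls, a pattern seen in 14.1% of all genes, and for none did they all lie below, a pattern seen in 13.3%. The median log2 fold change (log2FC, Ptch1-ablated over control) of the 10 genes was 0.84, beside 0.0046 for all genes tested. Their summed level was 1185 to 1302 TPM in the controls and 2222 to 2274 TPM in the Ptch1-ablated libraries, with no overlap. Cnn2, which did not pass, made up most of the sum in the controls, at 660 to 739 TPM. The sum therefore says little about the scarcer genes.

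**Figure D1:**
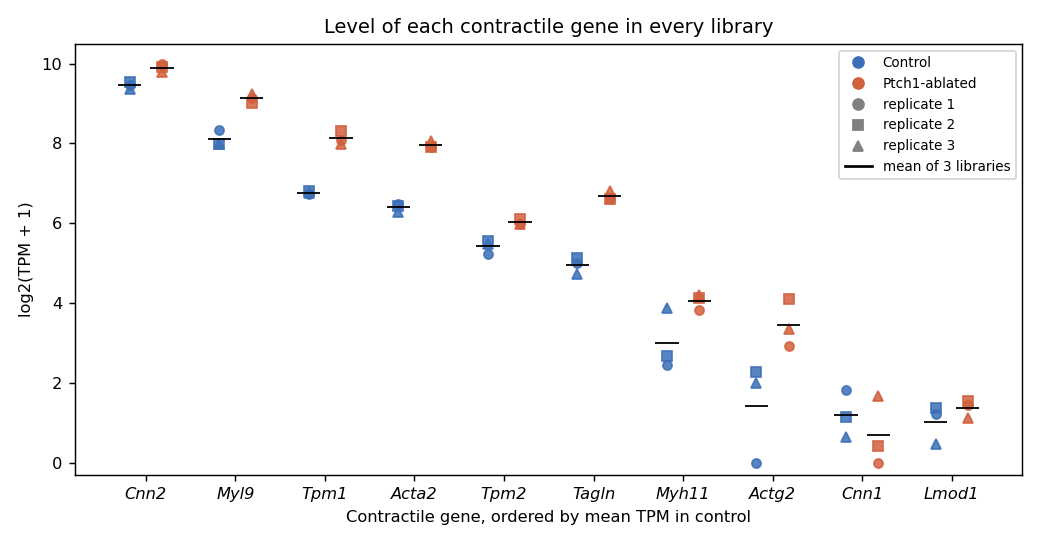
Level of each contractile gene in every library, as log2(TPM + 1), with genes ordered by their mean TPM in the controls and a line at the mean of the 3 log values of each group. The levels span from Cnn2, at 660 to 739 TPM in controls, to Lmod1, at 0.39 to 1.59 TPM, and the groups are well apart for Acta2, Tagln, Tpm1 and Myl9 and mixed for Cnn1 and Lmod1.

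Acta2 (Entrez 11475), smooth muscle alpha actin, had 89.2, 84.8 and 76.3 TPM in control replicates 1 to 3 and 241, 239 and 267 TPM in Ptch1-ablated replicates 1 to 3. Every Ptch1-ablated library was far above every control, and the gene moved from the 88.8th to 90.3rd percentile of TPM values in a control library to the 96.6th to 97.1st percentile in a Ptch1-ablated one. The rise was 2.64-fold in normalized counts (log2FC 1.40 ± 0.16 SE, edgeR adjusted p = 0.000147, n = 3 per group) and it passed the test under each of the 16 alternatives run, at log2FC values from 1.29 to 1.58. Acta2 is one of the genes that the study itself displayed from these libraries as a fibroblast marker. The study also reported qPCR of marker genes as bearing out the changes it displayed.

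Actg2 (Entrez 11468), the gamma actin of visceral smooth muscle, was scarce by comparison. Its expected counts were 0, 40 and 36 in the controls and 74, 168 and 112 in the Ptch1-ablated libraries, or 0, 3.83 and 2.98 TPM against 6.63, 16.2 and 9.23 TPM. The Ptch1-ablated libraries were all higher, but control replicate 1 held no count at all (up to 0.138 CPM at the floor of 3 counts) while the other controls did. This spread left a log2FC of 2.01 ± 1.12 SE that did not pass (edgeR adjusted p = 0.354). With control replicate 1 and Ptch1-ablated replicate 2 left out together it was 1.06, and limma on log2(TPM + 1) gave 2.04 with an adjusted p of 0.0318.

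Myl9 (Entrez 98932) encodes the regulatory light chain whose phosphorylation starts smooth muscle contraction. It was abundant in both groups, at 323, 253 and 254 TPM in the controls and 564, 517 and 606 TPM in the Ptch1-ablated libraries. The groups did not overlap and the 1.76-fold rise passed the test but not the 2-fold minimum (log2FC 0.81 ± 0.17 SE, edgeR adjusted p = 0.00872). It passed narrowly, since the adjusted p became 0.0562 without control replicate 2 and 0.052 without Ptch1-ablated replicate 3.

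Myh11 (Entrez 17880), the smooth muscle myosin heavy chain and one of the most specific markers of that lineage, had 4.5, 5.44 and 13.8 TPM in the controls and 13.2, 16.5 and 17.3 TPM in the Ptch1-ablated libraries. Control replicate 3 stood with the Ptch1-ablated libraries and above the other 2 controls. As labelled, the log2FC was 0.86 ± 0.40 SE and did not pass (edgeR adjusted p = 0.250). Without control replicate 3 it was 1.61 and passed (adjusted p = 0.00801), which brought the genes called higher to 4. In control replicate 3 the summed level of 10 mural cell markers was 964 TPM, between the 932 and 1024 TPM of the other 2 controls. Ndufa4l2 and Pdgfrb, at 497 and 289 TPM, made up most of that sum, so it cannot show a change in scarcer markers. Rgs5 was at 117 TPM beside 121 and 125. The scarcer mural markers differed in direction. Mcam was higher in control replicate 3, at 21.7 TPM beside 7.09 and 10.1, and Kcnj8 was lower, at 6.69 TPM beside 18.7 and 11.3. Cspg4 and Abcc9 were also lowest there, at 6.58 and 3.57 TPM. Notch3, Vtn and Higd1b lay within or close to the range of the other 2 controls. Cspg4, Abcc9, Vtn and Higd1b are named beyond the rule, after their values had been seen. The part of mural cells in the Myh11 value was not tested.

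Tpm1 (Entrez 22003), a tropomyosin that lies along the actin filament and stabilizes it, had 106, 112 and 107 TPM in the controls and 269, 318 and 254 TPM in the Ptch1-ablated libraries. The controls differed little among themselves and all lay below the Ptch1-ablated libraries, a 2.25-fold rise (log2FC 1.17 ± 0.15 SE, edgeR adjusted p = 0.000279) that passed under all 16 alternatives. Tpm2 (Entrez 22004), its relative, had 36.7, 45.9 and 43.9 TPM in the controls and 62.5, 67.8 and 62.4 TPM in the Ptch1-ablated libraries. These values did not overlap either, yet the log2FC of 0.41 ± 0.20 SE did not pass (edgeR adjusted p = 0.272). Both genes produce muscle and non-muscle isoforms, and counts per gene do not tell them apart.

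Tagln (Entrez 21345), which encodes the actin-binding protein SM22 alpha and is an early smooth muscle marker, had 31.1, 34.2 and 25.7 TPM in the controls and 96.4, 95.9 and 112 TPM in the Ptch1-ablated libraries. This was the largest rise among the 4 genes that passed, at 2.89-fold (log2FC 1.53 ± 0.22 SE, edgeR adjusted p = 0.000786), and it passed under all 16 alternatives. The value is less certain than that of its neighbours in this list. In GENCODE M21 transcripts, 58.3% of the 50-base windows of Tagln also occur in the overlapping gene Gm48529 or in Pcsk7, and its expected counts were not whole in any of the 6 libraries. Most of these shared windows were shared with Gm48529 and few with Pcsk7. Pcsk7 itself had a log2FC of 0.17 ± 0.23 SE (edgeR adjusted p = 0.764). No value is given here for Gm48529, so the part of shared reads in the Tagln rise was not tested. For the other 9 genes the counts were whole in all 6 libraries to within 0.001, and at most 0.34% of their windows were shared.

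The calponins, which bind actin and slow the myosin motor, did not pass. Cnn2 (Entrez 12798), a calponin also made outside muscle, was the most abundant of the 10 genes, at 707, 739 and 660 TPM in the controls and 1018, 965 and 891 TPM in the Ptch1-ablated libraries. Its groups did not overlap, but the log2FC in normalized counts was 0.24 ± 0.12 SE (edgeR adjusted p = 0.299). Cnn1 (Entrez 12797), the calponin of differentiated smooth muscle, was near the limit of detection, with expected counts of 49, 14 and 11 in the controls and 0, 4 and 29 in the Ptch1-ablated libraries. It was the only one of the 10 with a negative estimate, -1.36 ± 1.45 SE (edgeR adjusted p = 0.673), and its groups overlapped widely. Ptch1-ablated replicate 1, at 0 counts, could hold up to 0.128 CPM.

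Lmod1 (Entrez 93689), a nucleator of actin filaments in smooth muscle, had counts of 55, 57 and 16 in the controls and 66, 69 and 49 in the Ptch1-ablated libraries. The groups overlapped and the log2FC was 0.31 ± 0.82 SE (edgeR adjusted p = 0.894). Leaving out control replicate 3, the lowest library, turned it to -0.10.

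**Figure D2:**
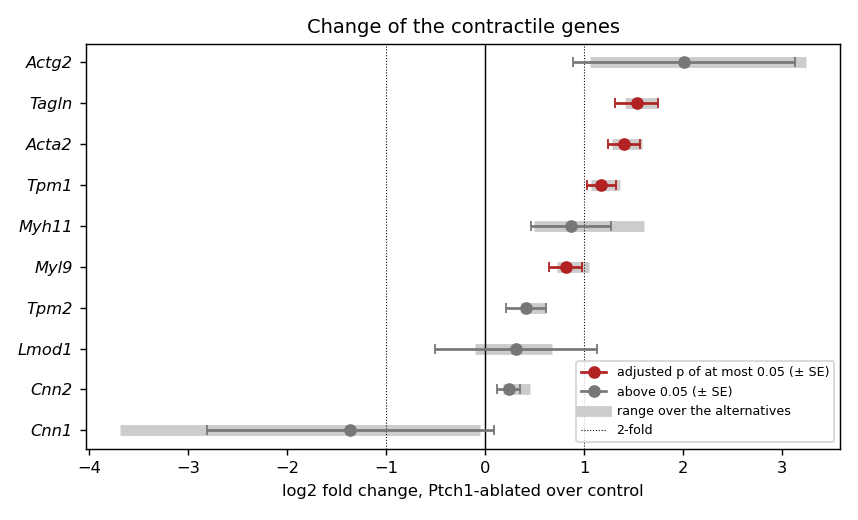
Log2 fold change of each contractile gene, Ptch1-ablated over control, with its SE (n = 3 per group). Red points passed at an adjusted p of at most 0.05, the pale bar spans the lowest and highest value over the alternatives, and dotted lines mark a 2-fold change. Tagln, Acta2 and Tpm1 lie beyond the 2-fold line with narrow bars, while Actg2, Lmod1 and Cnn1 have SEs of 0.82 to 1.45.

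Ordered by mean TPM in the controls, the genes ran Cnn2, Myl9, Tpm1, Acta2, Tpm2, Tagln, Myh11, Actg2, Cnn1 and Lmod1. Neighbours in this order did not overlap down to Myh11 and Actg2, whereas Actg2, Cnn1 and Lmod1 overlapped one another. In the Ptch1-ablated libraries Tagln, at 95.9 to 112 TPM, stood above Tpm2, at 62.4 to 67.8 TPM, and Acta2, at 239 to 267 TPM, came to overlap Tpm1, at 254 to 318 TPM. Myh11 and Actg2 also overlapped there. The genes most used to recognize mature smooth muscle, Myh11, Cnn1, Actg2 and Lmod1, were thus the 4 lowest in both groups, each at 17.3 TPM or less in every library.

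**Figure D3:**
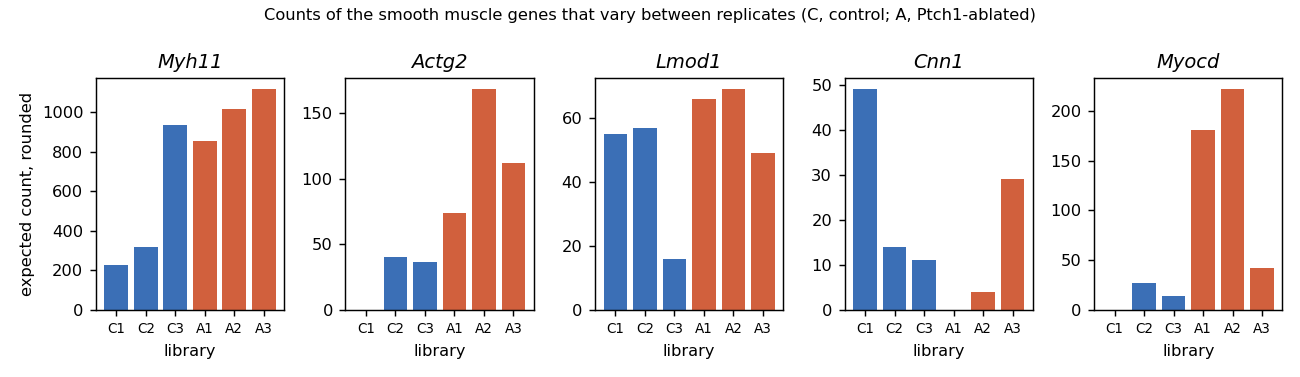
Expected counts, rounded to whole numbers, of the 4 scarcest contractile genes and of Myocd in each library. Myh11 in control replicate 3 (936 counts) reaches the Ptch1-ablated range of 852 to 1115, Actg2 and Myocd are at 0 in control replicate 1, and Cnn1 and Lmod1 overlap between groups.

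Each of these proteins has non-muscle or related counterparts made from other genes. The balance within a family shows whether a gene of the list rose with or ahead of them. It does not always set a muscle form against non-muscle ones. Cnn2 is also made outside muscle, and Tpm1 and Tpm2 produce both kinds of isoform. The families and ratios were put together after the values had been seen, and with 3 libraries against 3 the exact two-sided permutation test cannot go below p = 0.1. Acta2 made up 1.08, 0.935 and 1.19% of the summed TPM of 6 actins in the controls and 1.61, 1.92 and 2.6% in the Ptch1-ablated libraries. The groups were separate, but the actin pool stayed overwhelmingly that of the non-muscle genes Actb and Actg1. The ratio of Acta2 to Actb rose from 0.0137 ± 0.0021 to 0.0276 ± 0.0076 (SD, n = 3 each, exact permutation p = 0.1, 0.1625 after adjustment over 13 ratios). Actg1 passed the test with a log2FC of 0.65 ± 0.12 SE (edgeR adjusted p = 0.00395), and Actb had 0.38 ± 0.17 SE (adjusted p = 0.240).

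Among the calponins the change lay in the share rather than in the total. Cnn2 took 48.5, 49.4 and 46.5% of the calponin TPM in the controls and 64.1, 66.1 and 62.0% in the Ptch1-ablated libraries, while Cnn3 took 51.3, 50.5 and 53.5% and then 35.9, 33.9 and 37.8%. The summed calponin level overlapped between groups, at 1421 to 1495 TPM in the controls and 1437 to 1589 TPM in the Ptch1-ablated libraries. Cnn3, the acidic calponin of non-muscle cells, fell with a log2FC of -0.70 ± 0.12 SE (edgeR adjusted p = 0.00372) and did so under all 16 alternatives. The ratio of Cnn2 to Cnn3 was 0.93 ± 0.0565 in the controls and 1.79 ± 0.157 after ablation (SD, n = 3 each, exact permutation p = 0.1).

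Myl9 supplied 27.4, 20.4 and 24.2% of the TPM of the 3 regulatory light chain genes in the controls and 38.3, 37.0 and 38.1% in the Ptch1-ablated libraries. The shares of its non-muscle relatives Myl12a and Myl12b were both lower after ablation with no overlap, at 34.7 to 39.6% for Myl12b against 44.4 to 49.9% in the controls. Their own levels overlapped between groups and did not pass (log2FC -0.08 ± 0.16 and -0.17 ± 0.16 SE, edgeR adjusted p = 0.854 and 0.610). In the tropomyosin family Tpm1 moved from 16.1 to 17.9% up to 22.2 to 26.4%, and Tpm3 from 44.5 to 50.6% down to 35.8 to 37.3%. The level of Tpm3 itself was not lower, at 294 to 331 TPM in the controls and 403.5 to 449.5 TPM after ablation. It did not pass (log2FC 0.21 ± 0.12 SE, edgeR adjusted p = 0.379). Tpm4, a tropomyosin of non-muscle stress fibers, rose with a log2FC of 0.80 ± 0.15 SE (edgeR adjusted p = 0.00459), and its share overlapped between groups. Tpm2 had a share of 5.46 to 5.72% after ablation, beside 5.62 to 7.36% in the controls.

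For the transgelins and the myosin heavy chains the shares overlapped. Tagln made up 14.2 to 21.1% of the transgelin TPM in the controls and 20.7 to 24.6% in the Ptch1-ablated libraries, since Tagln2, its non-muscle counterpart, also rose (log2FC 1.10 ± 0.16 SE, edgeR adjusted p = 0.000891). Myh11 made up 14.1, 21.3 and 39.2% of the heavy chain TPM in the controls and 21.7, 27.0 and 33.9% after ablation. Myh9, the main non-muscle heavy chain, passed as higher (log2FC 0.81 ± 0.19 SE, edgeR adjusted p = 0.0168) and no longer did without control replicate 2 (0.0748), control replicate 3 (0.066) or Ptch1-ablated replicate 1 (0.0831). It is named because it is the counterpart of Myh11, after its value had been seen. Between 2 of the called genes the ratio overlapped as well, with 2.48 to 2.97 of Acta2 to Tagln in the controls and 2.4 to 2.51 in the Ptch1-ablated libraries.

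**Figure D4:**
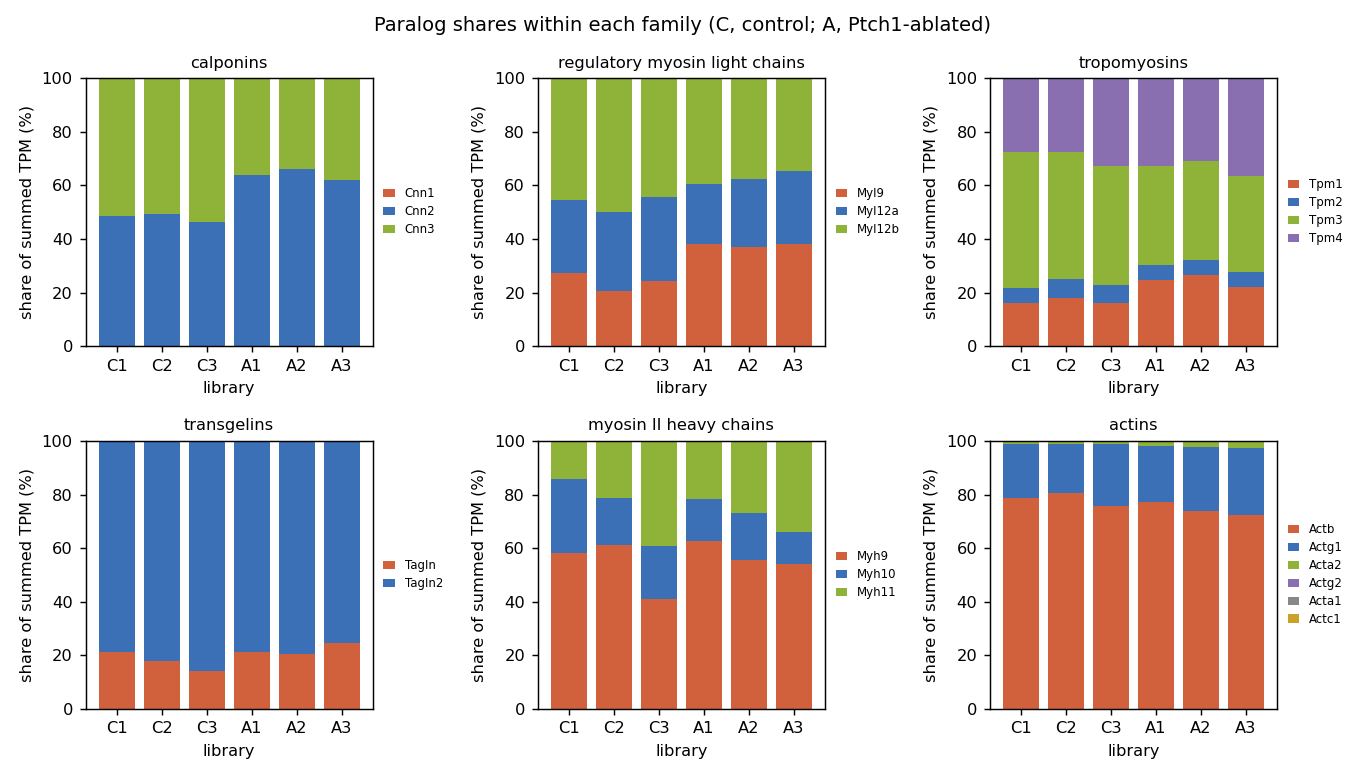
Share of each paralog in the summed TPM of its family (%), by library, with C for control and A for Ptch1-ablated. Cnn2 grows from 46.5 to 49.4% of the calponins in controls to 62.0 to 66.1%, Myl9 and Tpm1 also grow in their families, and the shares of Tagln and Myh11 overlap between groups. Cnn1 and all actins but Actb, Actg1 and Acta2 are too thin to be seen.

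Of the regulators that drive contractile genes, the coactivator Mrtfb rose. It had 11.4, 11.1 and 11.6 TPM in the controls and 49.95, 57.7 and 33.8 TPM in the Ptch1-ablated libraries (log2FC 1.77 ± 0.18 SE, edgeR adjusted p = 5.38e-05). Srf, the DNA-binding partner, had 4.04 to 4.85 TPM in the controls and 4.79 to 8.67 TPM after ablation, and the groups overlapped (log2FC 0.22 ± 0.35 SE, adjusted p = 0.798). Myocd, the coactivator restricted to muscle, had counts of 0, 27 and 14 in the controls and 181, 222 and 42 in the Ptch1-ablated libraries. All 3 Ptch1-ablated libraries were higher, but they differed widely and edgeR did not call the gene (log2FC 3.21 ± 1.15 SE, adjusted p = 0.126), while DESeq2 gave an adjusted p of 0.0159. Mrtfa had a log2FC of 0.48 ± 0.26 SE (adjusted p = 0.335), and it passed without control replicate 1, at 0.83 (adjusted p = 0.0466). In all, 1 of these 4 regulators passed as higher and 0 as lower. Over all genes tested 4.68% passed as higher and 3.8% as lower, the shares to set beside this and every list below.

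Myosin light chain phosphorylation was represented by 9 genes, of which 1 passed as higher and 0 as lower, with a median log2FC of 0.31. That gene was Mylk, myosin light chain kinase, with 6.03, 5.83 and 7.13 TPM in the controls and 16.9, 15.9 and 15.5 TPM in the Ptch1-ablated libraries. The values were tight within each group (log2FC 1.07 ± 0.22 SE, edgeR adjusted p = 0.0104), although the adjusted p was 0.0599 without Ptch1-ablated replicate 1. The subunits of myosin phosphatase, which reverses that phosphorylation, did not pass.

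Among 14 other genes of the smooth muscle cytoskeleton, 4 passed as higher and 0 as lower (median log2FC 0.74), beside 4.68% and 3.8% of all genes. In 9 of the 14 the Ptch1-ablated libraries all lay above the controls, beside 14.1% of all genes. In 1, Csrp2, they all lay below, beside 13.3%. Smtn, smoothelin, had 35.2, 34.1 and 30.8 TPM in the controls and 106, 67.5 and 76.3 TPM after ablation (log2FC 1.12 ± 0.21 SE, edgeR adjusted p = 0.00476). Itga8, an integrin subunit of smooth muscle and activated fibroblasts, went from 0.57 to 1.22 TPM up to 4.06 to 7.96 TPM (2.53 ± 0.47 SE, adjusted p = 0.00487). Both passed under all 16 alternatives. Fhl2, a LIM protein that binds SRF, and Cald1, caldesmon, passed as well (adjusted p = 0.0188 and 0.0243), but each no longer passed when any of several single libraries was left out, at adjusted p up to 0.0861 and 0.115. Des, desmin, had 6.91 to 8.37 TPM in the controls and 12.3 to 18.1 TPM after ablation and did not pass (log2FC 0.82 ± 0.30 SE, adjusted p = 0.137). Of the 2 genes of this list with a negative estimate, Pdlim3 had a log2FC of -0.06 (adjusted p = 0.992). The other, Csrp2, a LIM protein of immature smooth muscle, was at 21.9 to 32.5 TPM in the controls and 6.85 to 11.8 TPM after ablation, which did not pass either (-1.58 ± 0.49 SE, adjusted p = 0.0762, or 0.0333 with DESeq2). Des, Pdlim3 and Csrp2 were singled out after their values had been seen.

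Genes of focal adhesions and actin cross-links, where contractile bundles end at the membrane, gave 5 of 13 passing as higher and 0 as lower (median log2FC 0.50). Flna, filamin A, had 97.8, 137 and 146 TPM in the controls and 409, 386 and 307 TPM in the Ptch1-ablated libraries (log2FC 1.32 ± 0.16 SE, edgeR adjusted p = 0.000178). Vcl, vinculin, rose as well (0.88 ± 0.17 SE, adjusted p = 0.00624), and both passed under all 16 alternatives. Vasp, Actn4 and Zyx passed with all libraries and no longer did when 1 library was left out, at adjusted p up to 0.0561, 0.0662 and 0.0632, and Zyx is named beyond the rule. The adhesion genes Parva and Tln1 did not pass, with log2FC values of 0.07 ± 0.11 SE and 0.21 ± 0.14 SE.

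The wider set of 16 non-muscle paralogs, 14 of them tested, had 4 passing as higher and 1, Cnn3, as lower (median log2FC 0.45). By contrast, of 18 paralogs from striated muscle 12 were in the table, 4 were tested and none passed, and their summed level was 7.23 to 13.3 TPM in the controls and 11.2 to 18.8 TPM in the Ptch1-ablated libraries.

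A list of 14 genes used to recognize activated fibroblasts and myofibroblasts gave 8 passing as higher and 3 as lower (median log2FC 1.13). The shares of all genes were 4.68% and 3.8%. Ltbp2, a matrix protein, rose from 1.22 to 2.77 TPM up to 43.8 to 59.8 TPM (log2FC 4.67 ± 0.28 SE, edgeR adjusted p = 8.11e-07). Ccn2, the connective tissue growth factor, had 83.1, 95.8 and 119 TPM in the controls and 475, 504 and 513 TPM after ablation (2.12 ± 0.15 SE, adjusted p = 4.21e-06). Col3a1, a fibrillar collagen of healing tissue, went from 20.8 to 58.4 TPM up to 311 to 457 TPM (3.10 ± 0.30 SE, adjusted p = 3.53e-05). These 3 passed under all 16 alternatives. The 3 members that passed as lower were Fn1, which encodes fibronectin, Fap, a protease of activated fibroblasts, and Postn, the matrix protein periostin, which are named for their direction after it was seen. Fn1 fell from 245 to 349 TPM down to 136 to 165 TPM (-1.23 ± 0.14 SE, adjusted p = 0.000115). Fap and Postn also passed (-1.21 ± 0.25 and -0.64 ± 0.17 SE, adjusted p = 0.00952 and 0.0399) but no longer did when 1 library was left out, at adjusted p up to 0.0552 and 0.154. Of the 16 alternatives Fap passed under 15 and Postn under only 6.

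**Figure D5:**
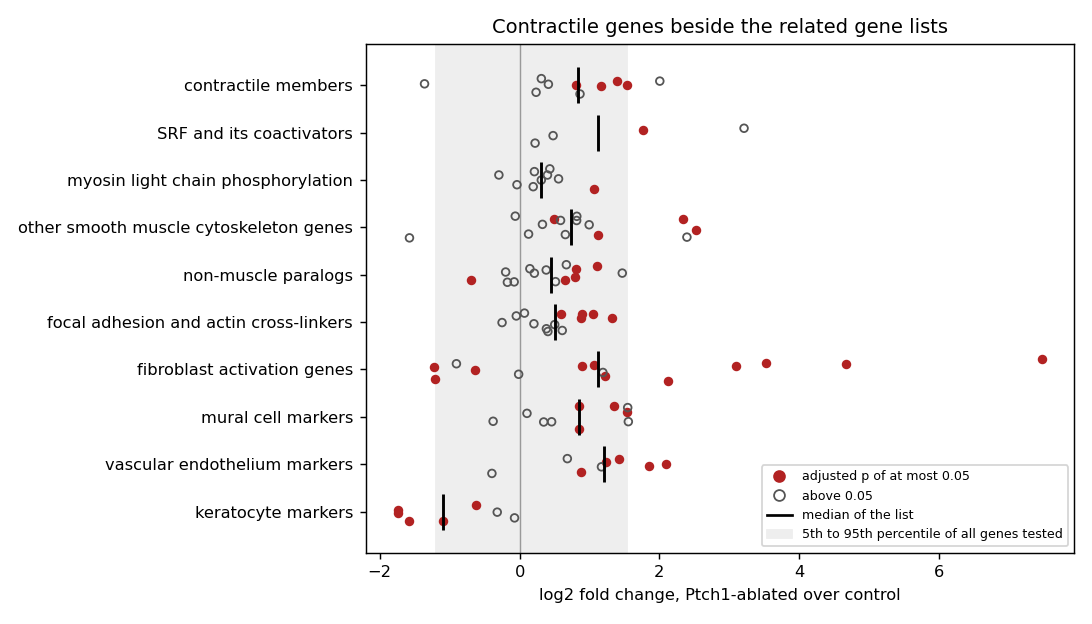
Log2 fold changes, Ptch1-ablated over control, of the tested genes of 10 lists, with filled points at an adjusted p of at most 0.05, a bar at the median of each list and a grey band from the 5th to the 95th percentile of all genes tested. The contractile genes have a median of 0.84, the fibroblast activation genes run from Fn1 at -1.23 to Lrrc15 at 7.48, and the keratocyte markers have a median of -1.09.

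Vascular smooth muscle cells and pericytes make the same contractile proteins, and the gate of the sort is not given in the sources used here. Some markers of other cells also rose, and others did not. Of 10 mural cell markers, 4 passed as higher and 0 as lower (median log2FC 0.85), beside 4.68% and 3.8% of all genes. None was at 0 in every library, and their summed level was 932 to 1024 TPM in the controls and 1151 to 1291 TPM after ablation. Rgs5, a defining pericyte gene, had 121, 125 and 117 TPM in the controls and 235, 274 and 252 TPM after ablation (log2FC 0.85 ± 0.12 SE, edgeR adjusted p = 0.00092), while Pdgfrb did not pass (adjusted p = 0.735). Ndufa4l2 did not pass either (log2FC -0.38 ± 0.14 SE, edgeR adjusted p = 0.130), and in CPM its Ptch1-ablated libraries all lay below the controls. Kcnj8, Notch3 and Mcam passed with all libraries and not when single libraries were left out (adjusted p up to 0.121, 0.125 and 0.151). Of 8 vascular endothelium markers 5 passed as higher and 0 as lower (median log2FC 1.21). Their summed level was 308 to 401 TPM in the controls and 587 to 656 TPM after ablation. Vwf rose with a log2FC of 1.85 ± 0.15 SE (edgeR adjusted p = 1.03e-05) and Tie1 with 2.10 ± 0.35 SE (adjusted p = 0.00244). Cdh5 and Esam passed as well (log2FC 1.43 and 1.24, adjusted p = 0.00785 and 0.0105). Kdr, the most abundant of the 8 in the controls, did not pass (log2FC -0.40 ± 0.14 SE, edgeR adjusted p = 0.112). In CPM its Ptch1-ablated libraries all lay below the controls. Among the other lists, keratocyte markers gave 0 higher and 5 lower of 7 tested, corneal epithelium 1 and 3 of 6, leukocytes 1 and 0 of 7, Schwann cells 2 and 0 of 6, melanocytes 0 and 0 of 4, and corneal endothelium 1 and 1 of 5. The part that any of these cells had in the levels of Acta2, Tagln, Tpm1 and Myl9 was not tested.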

How the data were processed

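RNA was measured in 6 libraries of sorted corneal keratocytes, 3 control and 3 Ptch1-ablated, grouped by the sample titles. Per the submitters' processing notes and the methods, the authors mapped reads with Bowtie2 2.2.5 and obtained gene values from RSEM 1.2.12. The notes name the build mm9, and annotation and strand are not given in the sources used here. Per the labels libraries were made with a TruSeq kit, whereas the methods describe ribosomal RNA depletion and a BGISEQ platform. The deposited table holds RSEM expected counts, not normalized (18.6% of them not whole, as reads that match several genes are split), together with TPM and FPKM values that the authors scaled by length and depth. The FPKM values and the authors' group averages were not used.

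Expected counts were rounded, genes filtered with filterByExpr, libraries scaled by TMM and groups compared with edgeR's quasi-likelihood test (two-sided, Benjamini-Hochberg over 13888 genes). CPM refers to TMM-scaled totals. A call needed a 2-fold difference and an adjusted p no greater than 0.05, as in the study's methods. TPM values compare levels between genes. They lack the TMM scaling, so a ratio of TPM between groups exceeds the fold in counts, and all genes together were 0.19 higher in median log2(TPM + 1) after ablation. The contractile genes, the 15 other lists and the alternatives were chosen with earlier results of these data known. All 10 contractile genes are named, with Srf, Myocd, Mrtfa, Mrtfb, Mylk and Actb, and up to 4 genes per list by smallest adjusted p and 2 by highest count among those that did not pass. Genes named outside that rule are said to be. Promoters came from RefSeq (GRCm38.p6), whose build differs from that of the table. Alternatives were DESeq2, other scalings and filters, limma on TPM, no fold minimum, leaving out each library and the replicate number as a block. The software was DESeq2 1.42.0, edgeR 4.0.16 and limma 3.58.1 under R 4.3.3, with matplotlib 3.10.9 under Python 3.11.15.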

Additional observations from a re-analysis of the deposited data

How the results depend on the processing

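With 3 contractile genes called higher, the count was 3 or 4 when 1 library was left out, and Myh11 was the addition, without control replicate 3. With limma on log2(TPM + 1) it was 5, with Myl9 and Actg2 added, and with log2(TPM + 0.1) it was 4. These TPM fits lack the TMM scaling, and their median over all genes was 0.19 and 0.22 instead of 0.0046. Cnn2 and Tpm2, which passed only there, had log2 fold changes of 0.45 and 0.60 with a pseudocount of 1, beside that median of 0.19. Acta2, Tagln and Tpm1 were called under every alternative run. The count called lower was 0 in each. Leaving out 1 library at a time, the log2 fold change of Lmod1 ran from -0.10 (without control replicate 3) to 0.67 and that of Srf from -0.040 (without Ptch1-ablated replicate 2) to 0.37. The cause was not tested.

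Over all genes 763 were called (61.2% higher). Without the fold minimum 1178 passed, leaving out 1 library gave 611 to 756, and scaling by library totals only gave 867 (73% higher), with a median over all genes of 0.17. Same-numbered libraries of the groups did not deviate together over all genes (correlations -0.046, -0.049 and 0.039). A pairing that touched few genes would not show in these values, so whether the libraries were paired is not known. With the replicate number as a block, 3 contractile genes and 663 genes in all were called, and Cald1 and Postn no longer passed (adjusted p = 0.0518 and 0.0547). Leaving out control replicate 1 and Ptch1-ablated replicate 2 together, chosen after seeing the data, gave 4 contractile genes, with Myl9 at 1.05 added. At low counts the precision is set by the spread between libraries, as for Actg2, Cnn1 and Lmod1, whose estimates have SEs of 0.82 or more.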
